A study of Mus musculus with 15 samples.

Results

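The interferon response genes described here are 36 interferon-stimulated genes, sensors and transcription factors, taken from a list of gene names, and all 36 were among the 16154 genes counted in hematopoietic stem cells (HSC) of the mouse. HSC were isolated from the bone marrow of female C57BL/6 mice, with 1 library per mouse. The 3 groups were young mice (6 to 12 weeks, no treatment, n = 5), aged mice (20 to 24 months, no treatment, n = 5) and aged mice of 20 to 24 months given nicotinamide riboside (NR, a precursor of the coenzyme NAD) at 3 mg/ml in the drinking water for 2 months (NR-treated aged mice, n = 5). The labels name no transgene or deletion in these mice, and each library was made from 20000 to 25000 HSC.

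Interferons are secreted proteins that cells release when they detect viruses or bacteria. Type I interferons bind a receptor of the chains Ifnar1 and Ifnar2, whose kinases Jak1 and Tyk2 start a signal that Stat2 and Irf9 carry to the interferon-stimulated response element (ISRE) in promoters. Interferon gamma acts through Ifngr1, Ifngr2, Jak1 and Jak2 on the gamma-activated site (GAS). HSC respond to both kinds of interferon, express part of the target genes without infection, and can be driven from quiescence into division by them.

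Young libraries held 2122221 to 3631395 counts in total, aged libraries 764119 to 13318989 and NR-treated aged libraries 2486399 to 3595384. Levels are given as CPM, the count scaled by the library total and its TMM factor, and group values as mean ± SD. Summed CPM of a list of 11 genes used to mark or stage HSC, Cd48 among them although the sort gated against it, were 1650 to 2020, 1690 to 2100 and 1580 to 2020 in the 3 groups. Of this list Ly6a, Slamf1 and Procr were called higher and Cd34, Flt3 and Hoxa9 lower with age, and Slamf1 and Cd48 lower with NR. Kit, the receptor for stem cell factor, was at 284 CPM or more in every library. Y-linked transcripts summed to 99.7 CPM in young replicate 1 and to 105 CPM in young replicate 5, against 0.731 to 3.00 CPM in the other 13 libraries, although all mice were labelled female. Young replicate 3 held 5070 CPM of neutrophil markers, against 22.1 to 537 CPM in the other young libraries. Counts of called genes are therefore also given without these 3 libraries.

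Of the 36 genes, 15 rose and 1 fell in aged compared to young HSC, and 20 did not pass the test (quasi-likelihood test of edgeR, adjusted p under 0.05 over all 16154 genes). The 15 genes are 41.7% of the members, while 9.68% of all genes were called higher. The members were chosen with earlier results of these data known, so such shares describe them and were not tested. The single gene called lower, Trim25, is 2.78% of them, beside 9.63% of all genes. The median log2 fold change of the 36 genes was 0.319, with 30 above 0, and the median of all genes was -0.032. In 12 of the 36 genes every aged library lay above every young library, which held for 6.86% of all genes. The genes that rose were the 4 interferon-induced GTPases Igtp, Gbp2, Gbp7 and Irgm1, the membrane proteins Ifitm1 and Ifitm3, the antiviral effectors Rtp4, Isg20, Rsad2, Ifit1 and Ifi35, the immunoproteasome subunits Psmb8 and Psmb9, the DNA and RNA sensor Zbp1 and the transcription factor Irf9. Without young replicates 1 and 5, 11 genes passed as higher, and Irf9, Irgm1, Psmb8 and Psmb9 were lost. Without young replicates 1, 3 and 5, 7 genes passed as higher, since Ifi35, Ifit1, Rsad2 and Zbp1 were lost as well, and Trim25 passed in neither case. Over all genes, the 1564 called higher with every library became 940 without young replicates 1 and 5 and 628 without 1, 3 and 5. The median log2 fold change of the members was 0.267 and 0.277 in these fits.

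With NR, 6 of the 36 genes fell in aged HSC and 1 rose. The 6 genes Ifitm1, Ifitm3, Rtp4, Isg20, Ifit1 and Rsad2 are 16.7% of the members, beside 4.18% of all genes called lower, and each of them had risen with age. The gene that rose, the peptide transporter subunit Tap1, is 2.78% of the members, beside 3.88% of all genes called higher. The median log2 fold change of the members was -0.124, beside 0.020 for all genes, and in 4 of them every NR-treated library lay below every aged library, which held for 4.95% of all genes. With library totals in place of TMM factors, the median of all genes moved from 0.020 to 0.161 and that of the members from -0.124 to 0.019. Under that scaling 1 member, Ifitm1, passed as lower and 2, Tap1 and Trim25, as higher, beside 344 and 1246 of all genes. Ifitm1 was also the 1 gene that passed as lower without aged replicate 3, without aged replicate 5, without NR-treated replicate 2 and without NR-treated replicate 3, and 3 genes passed without aged replicate 4 or without NR-treated replicate 1. Over all genes, the 676 called lower with every library became 248, 355, 483, 287, 468 and 547 in the order of these libraries.

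Compared with young HSC, 8 of the 36 genes (22.2%) were higher in NR-treated aged HSC, beside 2.56% of all genes. These were the 4 GTPases, Psmb8, Psmb9, Tap1 and Ifitm3. None passed as lower in edgeR, DESeq2 or limma-voom, with 1 gene (Ifi27) lower at an unadjusted p under 0.05, beside 1.91% of all genes called lower. In 5 genes every NR-treated library lay above every young library, which held for 2.80% of all genes. The median log2 fold change was 0.229, beside -0.005 for all genes. Tap1, Gbp2 and Igtp were the 3 genes that passed without NR-treated replicate 4, without young replicate 4 and without young replicates 1 and 5. Over all genes, the 413 called higher with every library became 294, 315 and 306 in the same order. The count of members was 4 without young replicate 5, 5 without young replicate 1, 13 without young replicate 2 and 3 without young replicates 1, 3 and 5. Over all genes it was 331, 371, 463 and 185 in that order. The 3 comparisons share libraries pair by pair, so that the aged libraries enter both the comparison with age and the comparison with NR.

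**Figure D1:**
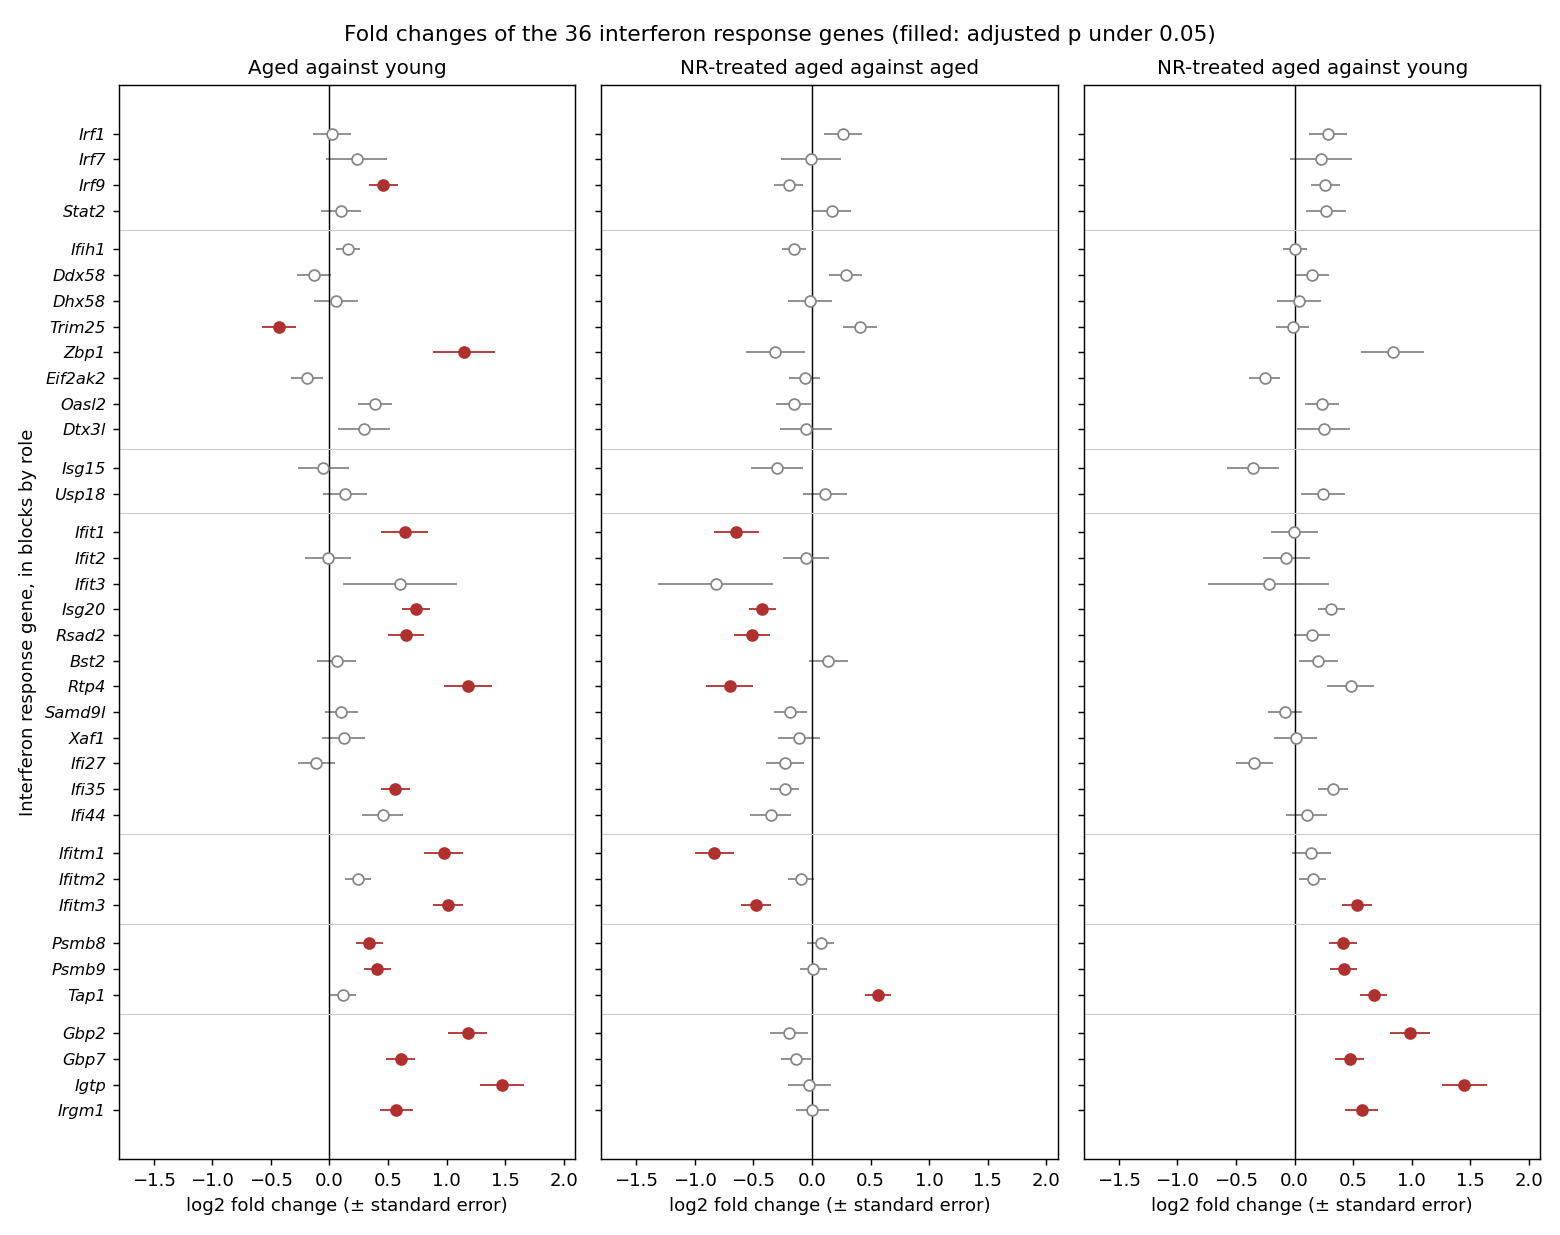
Log2 fold change (x axis, ± standard error) of each of the 36 interferon response genes (y axis, in blocks by role) for aged against young, NR-treated aged against aged, and NR-treated aged against young HSC. Filled points passed an adjusted p under 0.05, and the 4 GTPases of the lowest block are filled and above 0 in the first and the last panel and open and near 0 in the middle one, while Ifitm1, Ifitm3, Rtp4, Isg20, Rsad2 and Ifit1 are filled on the right in the first panel and on the left in the middle one.

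The letters of the ISRE and the GAS were counted in the RefSeq promoter windows (GRCm38.p6), which run from 250 bases before to 50 bases after the annotated start. Of the 31 members with a window, 15 (48.4%) held the ISRE core GAAANNGAAA on either strand, beside 3.87% of the 10319 measured genes with a window and 3.45% of all 32544 windows. The GAS core TTCNNNGAA was in 10 members (32.3%), beside 8.28% of the measured genes and 8.33% of all windows. All 4 GTPases held an ISRE core, as did 2 of the 3 Ifitm genes, 4 of the 10 antiviral effectors and 0 of the 3 genes of the immunoproteasome and peptide transport. Isg15, which passed no test, held 3 ISRE cores. Among members with a window, the ISRE core was in 7 of the 13 called higher with age and in 8 of the 17 not called. A match is a description of the letters and no evidence of binding. The stretches around the core are shown for the 5 members with the smallest adjusted p among those that hold it, with the core, or its complement on the other strand, in capitals.
Ifitm3 (chr7:141010714-141010743, minus strand, downstream of the start): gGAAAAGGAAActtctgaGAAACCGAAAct
Igtp (chr11:58199477-58199555, plus strand, upstream): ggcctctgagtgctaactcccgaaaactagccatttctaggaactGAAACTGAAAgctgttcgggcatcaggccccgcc
Gbp2 (chr3:142620559-142620658, plus strand, upstream): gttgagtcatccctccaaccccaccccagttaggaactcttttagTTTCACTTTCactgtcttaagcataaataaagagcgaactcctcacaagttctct
Gbp7 (chr3:142530238-142530335, plus strand, upstream): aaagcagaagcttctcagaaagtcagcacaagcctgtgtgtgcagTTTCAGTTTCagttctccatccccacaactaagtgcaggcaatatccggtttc
Rsad2 (chr12:26456518-26456617, minus strand, upstream): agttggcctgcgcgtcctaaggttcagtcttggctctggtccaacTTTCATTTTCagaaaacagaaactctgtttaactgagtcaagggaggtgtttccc
The core began 34 bases before the start in Igtp, 53 in Gbp7, 59 in Gbp2 and 120 in Rsad2. Ifitm3 held 2 cores, both downstream of its start, and the 1 GAS core of its window overlapped an ISRE core. Igtp held 1 GAS core and Gbp7 held 2, none of which overlapped the ISRE core, and the windows of Gbp2 and Rsad2 held none.

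The interferon-induced GTPases were the role in which every member rose with age. Igtp (also Irgm3), Irgm1, Gbp2 and Gbp7 are GTPases that take part in the defence of cells against intracellular parasites and bacteria, and Irgm1 is known to be needed for normal HSC function. Positions are whole-gene spans in GRCm38 from the GENCODE annotation, whose starts can differ from the RefSeq starts used for the promoters. In the order of replicates 1 to 5, Igtp (chr11:58199556-58207591, plus strand) was measured at 57.2, 76.8, 74.1, 49.7 and 51.5 CPM in young HSC, 151, 167, 188, 149 and 199 CPM in aged HSC and 169, 122.5, 143.5, 271 and 137.5 CPM in NR-treated aged HSC. The highest young library stayed below the lowest library of both aged groups, and NR-treated replicate 4 was the highest of all 15. Igtp was 2.78-fold higher in aged than in young HSC (log2 fold change 1.47 ± 0.19, adjusted p = 2.26e-05), 2.73-fold higher in NR-treated aged than in young HSC (adjusted p = 5.65e-05) and at a log2 difference of -0.022 ± 0.18 between the aged groups (adjusted p = 0.958). Both of its calls passed in all 27 alternative analyses. Exons of Igtp and Irgm2 share 162 bases on the same strand.

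Gbp2 (chr3:142620602-142638008, plus strand) stood at 51.6, 55.9, 66.0, 51.15 and 48.0 CPM in young, 122, 112, 143, 82.1 and 155 CPM in aged and 101, 89.4, 98.4, 153 and 97.5 CPM in NR-treated aged HSC. Again no aged or NR-treated library reached down to the young range, while aged replicate 4 was the lowest aged and NR-treated replicate 4 the highest NR-treated library. The log2 fold change was 1.18 ± 0.17 with age (adjusted p = 7.69e-05), -0.19 ± 0.16 with NR (adjusted p = 0.481) and 0.99 ± 0.17 for NR-treated aged against young HSC (adjusted p = 0.00115). Gbp7 (chr3:142530342-142550149, plus strand) was at 240.4, 251.6, 249.7, 194 and 231 CPM, 305.5, 307.5, 337.5, 379.6 and 442 CPM and 292, 321, 284, 413.5 and 304 CPM in the same order of groups. All libraries of both aged groups exceeded the young ones. Its log2 fold change was 0.61 ± 0.13 with age (adjusted p = 0.00253) and -0.14 ± 0.125 with NR (adjusted p = 0.52). For NR-treated aged against young HSC it was 0.47 ± 0.13 (adjusted p = 0.0361), a call that was lost in 9 of 27 alternatives (adjusted p up to 0.181), among them without young replicate 1, 4 or 5 or NR-treated aged replicate 2 or 4.

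Irgm1 (chr11:48861968-48871683, minus strand) gave 73.7, 85.6, 86.7, 68.9 and 73.4 CPM in young HSC, 118, 106, 124, 94.9 and 131 CPM in aged HSC and 110.5, 105, 93.7, 165.5 and 103 CPM in NR-treated aged HSC. The young libraries did not overlap with either aged group, and the group means of 115 ± 14.4 and 116 ± 28.5 CPM (SD, n = 5) without and with NR were close. Irgm1 was 1.49-fold higher with age (log2 fold change 0.57 ± 0.14, adjusted p = 0.00852) and 1.49-fold higher in NR-treated aged than in young HSC (adjusted p = 0.0225). The call against young HSC was lost in 7 of 27 alternatives (adjusted p up to 0.203), among them without young replicate 4 or 5 or NR-treated aged replicate 4. With NR its log2 fold change was 0.002 ± 0.14 (adjusted p = 0.995). The difference between the aged groups thus stayed within the spread of the libraries for each of the 4 GTPases, with log2 fold changes from -0.194 to 0.002. A p above the threshold does not show that the groups were equal.

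**Figure D2:**
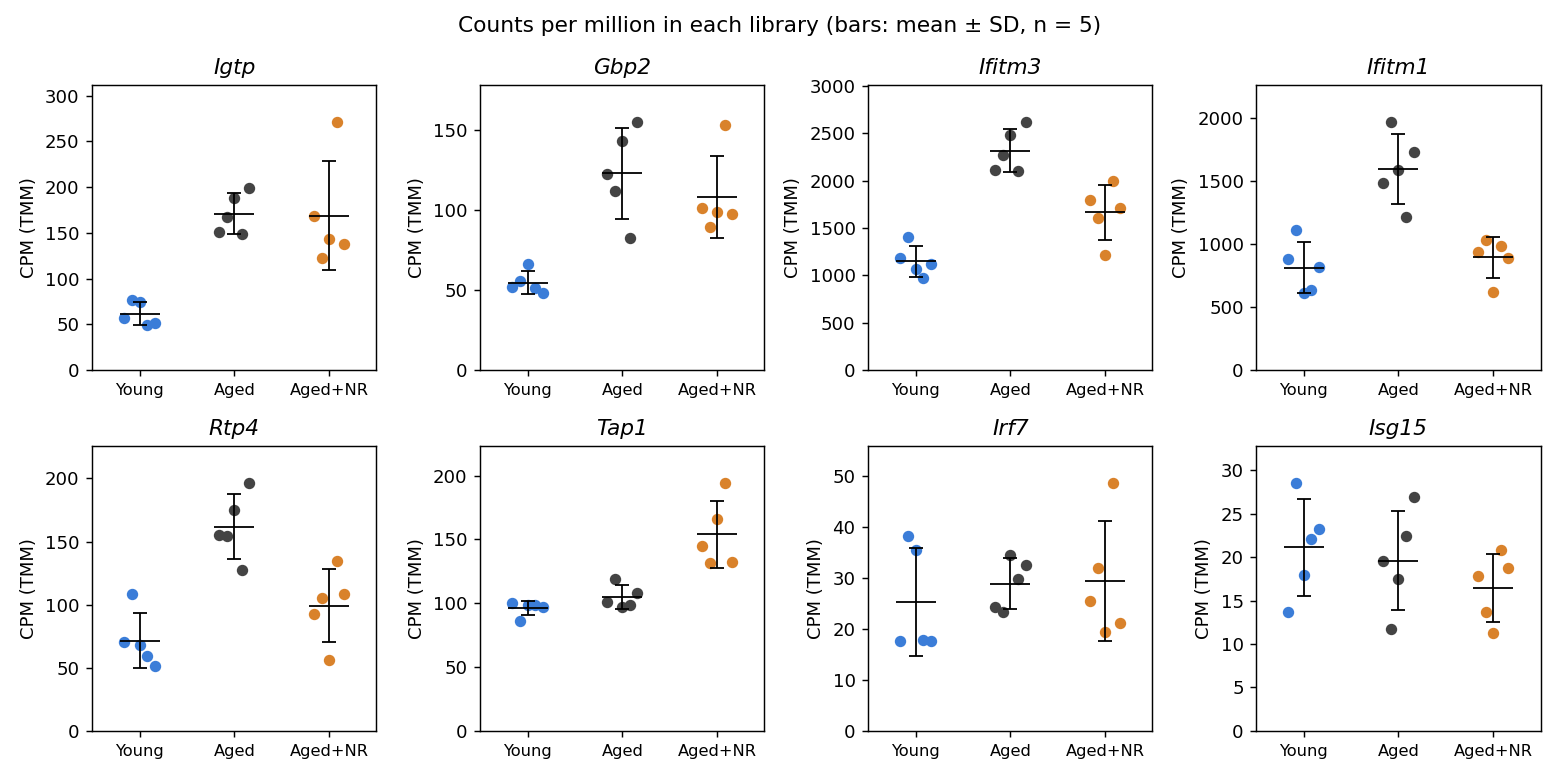
CPM with TMM factors (y axis, from 0) of 8 interferon response genes in each of the 15 libraries, with the mean and SD of the 5 libraries of a group as black bars. Igtp and Gbp2 are high in both aged groups, Ifitm3, Ifitm1 and Rtp4 are highest in aged HSC, Tap1 is highest in NR-treated aged HSC, and the groups overlap for Irf7 and Isg15.

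The interferon-induced transmembrane proteins sit in cell and endosome membranes and hinder the fusion of enveloped viruses. Ifitm1, Ifitm2 and Ifitm3 lie side by side on chromosome 7, and the family is known to be expressed in stem cells without interferon. Ifitm3 (chr7:141009586-141010770, minus strand) was counted at 1186, 1407, 1064, 970.5 and 1116 CPM in young HSC, 2107, 2272, 2483, 2106 and 2617 CPM in aged HSC and 1795, 1609, 1218, 1993 and 1710 CPM in NR-treated aged HSC. The aged libraries lay above those of both other groups, and the NR-treated libraries lay between, with replicate 3 inside the young range. Ifitm3 was 2.02-fold higher with age (log2 fold change 1.01 ± 0.13, adjusted p = 2.03e-05), and this call passed in all 27 alternatives. It fell with NR, at a log2 fold change of -0.48 ± 0.13 (adjusted p = 0.0287), and was still 1.45-fold higher than in young HSC (adjusted p = 0.0184). The fall with NR was lost in 7 of 27 alternatives (adjusted p up to 0.0788), among them without aged replicate 3 or 5 or NR-treated aged replicate 2 or 3. The difference between NR-treated aged and young HSC was lost in 5 (adjusted p up to 0.253), among them without young replicate 4 or NR-treated aged replicate 4.

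Ifitm1 (chr7:140967221-140969825, plus strand) was at 879, 1111, 609, 640.3 and 818 CPM in young, 1485, 1968, 1588, 1219 and 1729 CPM in aged and 939, 1036, 623, 989 and 888 CPM in NR-treated aged HSC. The aged libraries did not overlap with the other groups, which overlapped with each other. Ifitm1 rose 1.97-fold with age (log2 fold change 0.98 ± 0.17, adjusted p = 0.000484) and fell with NR at a log2 fold change of -0.835 ± 0.17 (adjusted p = 0.00779), and both calls passed in all 27 alternatives. Between NR-treated aged and young HSC the log2 fold change was 0.14 ± 0.17 (adjusted p = 0.72). Ifitm2, the third gene of the cluster, averaged 249.9 ± 43.2, 296 ± 18.1 and 278 ± 22.9 CPM (SD, n = 5) and passed no test, with log2 fold changes of 0.25 ± 0.11 with age and -0.092 ± 0.11 with NR. The genes of this family are related in sequence, and their similarity was not measured here. How the counting treated any reads shared by them leaves the split between the 3 genes uncertain.

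The 12 antiviral effectors act at different steps of infection. Of them, 5 (41.7%) rose with age, beside 9.68% of all genes. With NR, 4 of these 5 fell, which is 33.3% of the 12, beside 4.18% of all genes. The same aged libraries enter both comparisons. Rtp4 (chr16:23520291-23614222, plus strand), a chaperone of membrane receptors that also restrains viral replication, was at 70.5, 108, 68.3, 59.5 and 51.2 CPM in young HSC, 155, 154, 175, 128 and 196 CPM in aged HSC and 92.4, 105, 56.0, 134 and 108 CPM in NR-treated aged HSC. Every aged library was above every young one, while NR-treated replicate 4 reached into the aged range and replicates 1, 2 and 3 lay within the young range. Rtp4 was 2.27-fold higher with age (log2 fold change 1.18 ± 0.20, adjusted p = 0.000484) and lower with NR (log2 fold change -0.70 ± 0.20, adjusted p = 0.0354). Against young HSC the NR-treated mice differed by 0.48 ± 0.20 (adjusted p = 0.21). The change with age passed in all 27 alternatives and the change with NR was lost in 8 (adjusted p up to 0.0975), among them without aged replicate 2, 3 or 5 or NR-treated aged replicate 1, 2 or 3.

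Isg20 (chr7:78913424-78920396, plus strand), an exonuclease that degrades single-stranded RNA, gave 74.0, 74.75, 64.7, 54.05 and 69.6 CPM in young, 107, 112, 111, 112 and 121 CPM in aged and 99.15, 80.2, 76.2, 95.7 and 68.35 CPM in NR-treated aged HSC. The aged libraries spanned a narrow range above all others. Isg20 rose 1.67-fold with age (log2 fold change 0.74 ± 0.12, adjusted p = 0.000265) and fell with NR (log2 fold change -0.42 ± 0.12, adjusted p = 0.0332), with 0.315 ± 0.12 remaining between NR-treated aged and young HSC (adjusted p = 0.152). Its fall with NR was lost in 10 of 27 alternatives (adjusted p up to 0.117), among them without aged replicate 3, 4 or 5 or NR-treated aged replicate 2, 3 or 5. Rsad2 (chr12:26442746-26456452, minus strand) encodes viperin, an enzyme that makes a chain-terminating nucleotide, and was at 48.8, 53.05, 69.2, 76.55 and 72.3 CPM, 105, 102.5, 95.8, 90.1 and 112 CPM and 52.8, 69.8, 56.8, 85.5 and 89.6 CPM in the same order. The aged libraries again lay above both other groups. The log2 fold change was 0.66 ± 0.155 with age (adjusted p = 0.00611), -0.51 ± 0.15 with NR (adjusted p = 0.046) and 0.15 ± 0.155 for NR-treated aged against young HSC (adjusted p = 0.679). The fall of Rsad2 was lost in 16 of 27 alternatives (adjusted p up to 0.242), among them without young replicate 5, aged replicate 1, 2, 3, 4 or 5 or NR-treated aged replicate 1, 2, 3 or 4.

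Ifit1 (chr19:34640871-34650009, plus strand) binds viral RNA that lacks the methylated cap of host messenger RNA. Its values were 30.9, 29.3, 26.9, 24.3 and 36.1 CPM in young, 38.9, 31.1, 55.5, 44.45 and 55.8 CPM in aged and 21.5, 30.7, 19.45, 40.9 and 35.1 CPM in NR-treated aged HSC. The groups overlapped, since aged replicate 2, the library with the smallest total count, was within the young range. The log2 fold change was 0.64 ± 0.20 with age (adjusted p = 0.0274), -0.645 ± 0.195 with NR (adjusted p = 0.047) and -0.004 ± 0.20 between NR-treated aged and young HSC (adjusted p = 0.997). The rise was lost in 7 of 27 alternatives (adjusted p up to 0.529), among them without young replicate 4 or aged replicate 3 or 5, and the fall in 16 (adjusted p up to 0.513), among them without young replicate 1 or 5, aged replicate 3, 4 or 5 or NR-treated aged replicate 1, 2 or 3. Ifi35 (chr11:101448407-101458698, plus strand), a leucine zipper protein that pairs with Nmi, was at 63.2, 81.2, 53.9, 65.7 and 48.55 CPM, 91.8, 94.7, 96.9, 92.3 and 84.95 CPM and 86.7, 73.9, 71.95, 86.9 and 72.2 CPM. Its aged libraries exceeded all young libraries. Ifi35 rose with age (log2 fold change 0.56 ± 0.125, adjusted p = 0.00426), and its log2 fold changes of -0.23 ± 0.12 with NR (adjusted p = 0.247) and 0.33 ± 0.13 between NR-treated aged and young HSC (adjusted p = 0.156) did not pass.

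The other 7 antiviral effectors passed no test. Bst2 (chr8:71534255-71537456, minus strand), also called tetherin because it holds budding virions on the cell surface, was at 69.5, 94.8, 74.5, 78.0 and 83.6 CPM in young, 65.3, 46.7, 102, 90.0 and 103 CPM in aged and 102, 91.8, 78.2, 109.6 and 80.1 CPM in NR-treated aged HSC. The aged libraries spread the widest and covered the whole young range. Its log2 fold change was 0.063 ± 0.17 with age (adjusted p = 0.835) and 0.14 ± 0.17 with NR (adjusted p = 0.633). Ifi44 had a log2 fold change of 0.45 ± 0.18 with age (adjusted p = 0.0767) and -0.35 ± 0.175 with NR, with libraries at 41.5 to 49.1 CPM in young, 47.5 to 72.65 in aged and 28.4 to 70.5 in NR-treated aged HSC. For Samd9l, which restricts viral translation, the corresponding values were 0.10 ± 0.14 and -0.18 ± 0.14, with libraries at 72.3 to 107, 83.7 to 117 and 66.1 to 105 CPM. Xaf1, an antagonist of the apoptosis inhibitor Xiap, had 0.12 ± 0.18 and -0.11 ± 0.18 and ran over 25.3 to 36.2, 27.25 to 38.1 and 21.0 to 47.5 CPM. Ifi27 was at -0.11 ± 0.16 and -0.23 ± 0.16 (97.2 to 189, 93.4 to 150.2 and 84.1 to 114 CPM), and Ifit2, a relative of Ifit1, at -0.016 ± 0.20 and -0.052 ± 0.195 (13.8 to 20.0, 7.78 to 22.3 and 13.3 to 20.2 CPM). The ranges of the 3 groups overlapped for each of these genes. Ifit3, the least counted of the 36 genes, had 1 to 24 counts in the NR-treated libraries and 5 to 23 in the young ones (1.755 to 9.24, 5.78 to 9.635 and 0.389 to 8.77 CPM), and its log2 fold changes of 0.60 ± 0.49 and -0.82 ± 0.49 did not pass.

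The immunoproteasome and peptide transport genes Psmb8, Psmb9 and Tap1 lie next to each other on chromosome 17 in the major histocompatibility complex. Psmb8 and Psmb9 are catalytic subunits that replace those of the standard proteasome, and Tap1 forms with Tap2 the pump that carries peptides into the endoplasmic reticulum for loading on MHC class I. Tap1 (chr17:34187553-34197225, plus strand) was at 100.4, 86.4, 98.3, 98.7 and 97.4 CPM in young HSC, 101, 119, 96.9, 98.7 and 108 CPM in aged HSC and 145, 132, 166, 194 and 133 CPM in NR-treated aged HSC. The young and aged libraries overlapped and every NR-treated library lay above them. Tap1 was thus 1.48-fold higher in NR-treated than in untreated aged HSC (log2 fold change 0.56 ± 0.11, adjusted p = 0.00808) and 1.60-fold higher than in young HSC (adjusted p = 0.000946), with 0.11 ± 0.11 between aged and young HSC (adjusted p = 0.531). The call with NR was lost in 1 of 27 alternatives, when all libraries were thinned to the smallest total (adjusted p = 0.134). Exons of Tap1 and Psmb9 share 212 bases on opposite strands, and whether the counting used the strand is not given in the sources used here.

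Psmb8 (chr17:34197721-34201454, plus strand) stood at 506, 610.4, 439, 394 and 458 CPM in young, 572.5, 589, 672, 580.1 and 631 CPM in aged and 712, 552, 591, 729 and 621 CPM in NR-treated aged HSC. Young replicate 2 lay within the range of both aged groups, and the other young libraries lay below. The log2 fold change was 0.34 ± 0.12 with age (adjusted p = 0.047), 0.073 ± 0.12 with NR (adjusted p = 0.734) and 0.41 ± 0.12 for NR-treated aged against young HSC (adjusted p = 0.0481). The call with age was lost in 22 of 27 alternatives (adjusted p up to 0.315), among them without young replicate 1, 3, 4 or 5, aged replicate 1, 2, 3, 4 or 5 or NR-treated aged replicate 1, 3, 4 or 5. The call of NR-treated aged against young HSC was lost in 18 (adjusted p up to 0.387), among them without young replicate 1, 3, 4 or 5, aged replicate 1, 2, 4 or 5 or NR-treated aged replicate 1, 3, 4 or 5. Psmb9 (chr17:34181987-34187764, minus strand) gave 199, 223, 165, 160.4 and 182 CPM, 242, 263, 244, 227 and 258 CPM and 282, 199, 254, 279 and 228.5 CPM. Its aged libraries all exceeded the young ones, while NR-treated replicate 2 fell inside the young range. Psmb9 rose with age (log2 fold change 0.41 ± 0.115, adjusted p = 0.0182), differed by 0.011 ± 0.11 with NR (adjusted p = 0.967) and was higher in NR-treated aged than in young HSC (0.42 ± 0.115, adjusted p = 0.0405). The call with age was lost in 5 of 27 alternatives (adjusted p up to 0.177), among them without young replicate 4, and the call against young HSC after NR in 14 (adjusted p up to 0.331), among them without young replicate 1, 3, 4 or 5, aged replicate 1 or 5 or NR-treated aged replicate 1, 3 or 4.

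Of the 4 transcription factors of the response, Irf9 was the only one called in any comparison. Irf9 (chr14:55603571-55610030, plus strand), which binds DNA together with Stat2, was at 83.2, 124, 78.1, 76.9 and 76.9 CPM in young, 127, 121, 129, 116 and 109.7 CPM in aged and 111, 98.7, 101, 108 and 107 CPM in NR-treated aged HSC. Young replicate 2 was as high as the aged libraries, and the other 4 young libraries lay below all libraries of both aged groups. Irf9 rose with age (log2 fold change 0.46 ± 0.12, adjusted p = 0.0136) and differed by -0.20 ± 0.12 with NR (adjusted p = 0.318). The rise was lost in 3 of 27 alternatives, without young replicates 1 and 5 among them, with adjusted p up to 0.324. Irf9 shares 123 exon bases with Rnf31 on the same strand.

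Irf7 (chr7:141262706-141266481, minus strand), which amplifies the production of type I interferon, was at 17.55, 38.2, 35.5, 17.8 and 17.5 CPM in young, 24.3, 23.35, 34.5, 29.7 and 32.5 CPM in aged and 25.4, 31.9, 19.45, 48.6 and 21.2 CPM in NR-treated aged HSC. Young replicates 2 and 3 lay above every aged library, the other 3 young libraries lay below all of them, and the NR-treated libraries overlapped with both. Its log2 fold change was 0.23 ± 0.26 with age (adjusted p = 0.573) and -0.009 ± 0.255 with NR (adjusted p = 0.989). Stat2 (chr10:128270559-128292849, plus strand) was at 20.35, 32.55, 40.9, 33.7 and 30.75 CPM, 38.7, 27.25, 29.6, 39.3 and 31.7 CPM and 37.85, 36.7, 33.8, 48.2 and 33.8 CPM, with overlapping groups and log2 fold changes of 0.10 ± 0.17 (adjusted p = 0.724) and 0.17 ± 0.17 (adjusted p = 0.557). Irf1 (chr11:53770014-53778374, plus strand) is induced by interferon gamma and drives the immunoproteasome genes. It was measured at 91.9, 157, 98.8, 74.7 and 89.3 CPM, 96.5, 79.1, 109, 111 and 116 CPM and 107, 139, 127, 143 and 106 CPM, and young replicate 2 was the highest of all 15 libraries. The log2 fold changes were 0.019 ± 0.16 with age (adjusted p = 0.953) and 0.26 ± 0.16 with NR (adjusted p = 0.32), both within the spread of the libraries.

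Among the 8 sensors and their regulators, Zbp1 rose and Trim25 fell with age. Zbp1 (chr2:173206612-173218923, minus strand), a sensor of Z-form nucleic acids that can trigger necroptosis, was at 13.3, 17.3, 11.7, 12.0 and 8.36 CPM in young HSC, 28.03, 29.8, 25.3, 22.9 and 33.1 CPM in aged HSC and 20.6, 21.2, 12.4, 42.0 and 15.25 CPM in NR-treated aged HSC. The aged libraries lay above the young ones, and the NR-treated libraries ran from the young range to above the aged range. Zbp1 was 2.22-fold higher with age (log2 fold change 1.151 ± 0.27, adjusted p = 0.00535), with -0.31 ± 0.25 for NR (adjusted p = 0.458) and 0.84 ± 0.27 for NR-treated aged against young HSC (adjusted p = 0.0848). Without young replicates 1, 3 and 5 the call with age was lost (adjusted p = 0.138).

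Trim25 (chr11:88999376-89020293, plus strand), a ubiquitin ligase that helps activate the RNA sensor RIG-I, was at 40.7, 52.65, 55.2, 53.3 and 53.9 CPM in young, 36.85, 28.5, 38.7, 49.96 and 31.9 CPM in aged and 48.6, 54.3, 43.95, 59.5 and 46.6 CPM in NR-treated aged HSC. Young replicate 1 lay below the other young libraries and inside the aged range. Trim25 was lower with age (log2 fold change -0.43 ± 0.145, adjusted p = 0.0428), a call lost in 13 of 27 alternatives (adjusted p up to 0.146), among them without young replicate 2, 3, 4 or 5 or aged replicate 1, 2, 3 or 5. With NR its log2 fold change was 0.41 ± 0.14 (adjusted p = 0.08), and this difference passed with library totals in place of TMM factors. The RIG-I-like receptors Ddx58 (RIG-I itself), Ifih1 (Mda5) and Dhx58 had log2 fold changes of -0.13 ± 0.14, 0.16 ± 0.10 and 0.054 ± 0.19 with age, and 0.29 ± 0.14, -0.15 ± 0.10 and -0.017 ± 0.18 with NR, and none passed. Their libraries ran over 51.2 to 58.4, 36.3 to 57.0 and 50.9 to 85.1 CPM for Ddx58, 68.4 to 88.8, 77.8 to 92.6 and 68.8 to 81.35 CPM for Ifih1 and 19.15 to 29.6, 18.2 to 29.1 and 20.3 to 37.3 CPM for Dhx58, in the order young, aged and NR-treated aged. Eif2ak2, the kinase PKR that stops translation when it binds double-stranded RNA, was at -0.19 ± 0.13 with age and -0.063 ± 0.13 with NR (67.5 to 88.5, 49.3 to 84.6 and 54.2 to 69.0 CPM). Oasl2 had 0.39 ± 0.15 with age (adjusted p = 0.0684) and -0.16 ± 0.15 with NR (56.2 to 83.6, 75.7 to 97.4 and 58.7 to 108.5 CPM). Dtx3l, a ubiquitin ligase that works as a pair with Parp9, had 0.30 ± 0.22 and -0.05 ± 0.22 (116 to 244, 213 to 365.5 and 145 to 343 CPM), and the exons of this pair share 458 bases on opposite strands.

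The ISG15 system passed no test. Isg15 (chr4:156199424-156200818, minus strand), a ubiquitin-like modifier that is among the most strongly induced targets of type I interferon, was at 13.7, 28.5, 18.0, 22.1 and 23.2 CPM in young, 19.5, 11.7, 17.5, 22.4 and 26.9 CPM in aged and 17.8, 13.7, 11.3, 20.8 and 18.8 CPM in NR-treated aged HSC. The 3 groups overlapped throughout. Its log2 fold change was -0.054 ± 0.22 with age (adjusted p = 0.898), -0.30 ± 0.22 with NR (adjusted p = 0.411) and -0.35 ± 0.22 for NR-treated aged against young HSC (adjusted p = 0.44). Usp18 removes Isg15 from its targets and damps signalling at the type I receptor. It averaged 20.95 ± 2.795, 22.6 ± 3.285 and 24.85 ± 8.39 CPM (SD, n = 5), with log2 fold changes of 0.13 ± 0.19 with age and 0.11 ± 0.19 with NR.

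**Figure D3:**
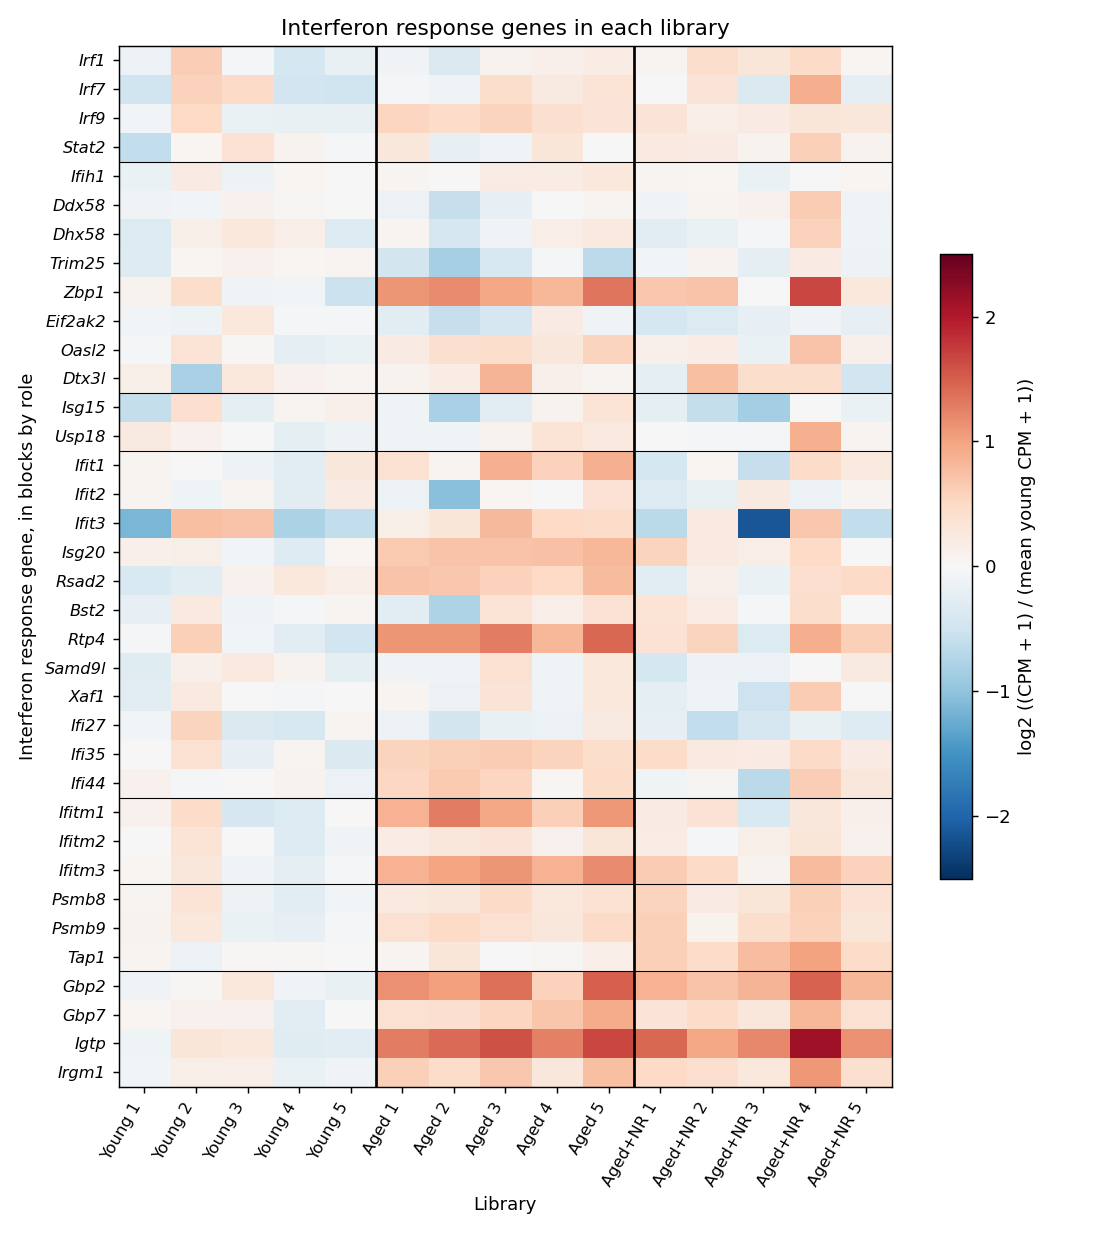
Level of the 36 interferon response genes (rows, in blocks by role) in each of the 15 libraries (columns), as log2 of (CPM + 1) over the mean young CPM + 1, red for higher and blue for lower than the young mean. The reddest rows of the aged libraries are Zbp1, Rtp4, Ifitm1, Ifitm3, Gbp2 and Igtp, and the column of NR-treated replicate 4 is redder than the other NR-treated columns.

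The libraries of a group did not hold the same level of these genes. The mean log2 CPM over the 36 genes, which is a description and was not tested, was 6.10 ± 0.147 in young, 6.48 ± 0.128 in aged and 6.33 ± 0.237 in NR-treated aged HSC (SD, n = 5). The young libraries ran from 5.98 to 6.33, with replicate 2 the highest, and the aged libraries from 6.32 to 6.64, with replicate 5 the highest. NR-treated replicates 1 to 5 were at 6.27, 6.31, 6.08, 6.72 and 6.28, so that replicate 4 exceeded every aged library and the other 4 lay below the aged ones, replicate 2 narrowly (6.314 against 6.316 in aged replicate 2). Replicate 4 was the highest NR-treated library for 27 of the 36 genes and the lowest for none, and lay 0.389 above the group mean of log2 CPM on average. NR-treated replicate 3 was the lowest for 17 genes, and young replicate 2 the highest for 21. With the median over the genes in place of the mean, replicate 4 was at 6.54, inside the aged range of 6.43 to 6.73. With library totals in place of TMM factors the group means were 6.14, 6.40 and 6.38, and NR-treated replicate 2, at 6.398, lay inside the aged range of 6.328 to 6.499.

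The rest of the pathway was followed in 123 measured genes of a list of 144. Of these, 34 (27.6%) were higher and 3 (2.44%) lower with age, 3 (2.44%) were higher and 11 (8.94%) lower with NR, and 19 (15.4%) were higher and 4 (3.25%) lower in NR-treated aged than in young HSC. Over all genes, 9.68% were higher and 9.63% lower with age, 3.88% and 4.18% with NR, and 2.56% and 1.91% in NR-treated aged against young HSC. The median log2 fold changes of the pathway genes were 0.159, -0.096 and 0.078, beside -0.032, 0.020 and -0.005 for all genes. Of the 11 lower with NR, named after their values were seen, Ccl5, Ifi27l2a and Ifitm6 were highest among young libraries in replicate 3. It held 40.4, 48.05 and 86.7 CPM of them, against at most 10.35, 7.08 and 3.81 CPM in NR-treated libraries. Ptpn2, Trim30a and Trim12c, also among the 11, were highest in young replicate 5. The part of mature cells in the 11 was not tested. Without young replicates 1 and 5, 27 passed as higher with age, beside 940 of all genes. Without young replicates 1, 3 and 5, 18 did, beside 628 of all genes, against 1564 with every library. The interferon receptor chains passed no test. Ifnar1 was at 32.95 ± 5.24, 27.0 ± 5.82 and 38.7 ± 2.68 CPM in young, aged and NR-treated aged HSC (SD, n = 5), with a log2 fold change of 0.49 ± 0.15 with NR (adjusted p = 0.0502), and Ifnar2 at 49.9 ± 9.26, 38.3 ± 7.12 and 43.1 ± 0.898 CPM, with -0.35 ± 0.14 with age (adjusted p = 0.0852). The chains of the interferon gamma receptor, Ifngr1 and Ifngr2, had log2 fold changes of 0.40 ± 0.18 and 0.025 ± 0.23 with age and -0.32 ± 0.175 and -0.415 ± 0.23 with NR, and Il10rb, which serves type III interferons, -0.15 ± 0.19 and 0.125 ± 0.19.

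Of the kinases that sit at the receptors, Jak1 was higher with age (0.34 ± 0.12, adjusted p = 0.0449) and lower with NR (-0.39 ± 0.12, adjusted p = 0.0438). Jak2 was lower with age (-0.405 ± 0.13, adjusted p = 0.0295), and Tyk2 was higher with NR (0.56 ± 0.16, adjusted p = 0.038), all as log2 fold changes. The feedback inhibitor Socs1 passed no test (0.46 ± 0.21 with age, adjusted p = 0.133), nor did Irf3, which starts the production of interferon (0.38 ± 0.145 with NR, adjusted p = 0.109), or Irf2, which can repress Irf1 targets (-0.22 ± 0.10 with age, adjusted p = 0.131). Irf8, a factor of monocytes and dendritic cells, was lower in NR-treated aged than in aged HSC (-2.685 ± 0.715, adjusted p = 0.028), with single libraries from 5.26 to 102 CPM in young, 14.45 to 63.3 in aged and 2.72 to 12.0 in NR-treated aged HSC.

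The 10 pathway genes with the smallest adjusted p in any of the 3 comparisons all rose with age and were higher in NR-treated aged than in young HSC. The choice itself favours genes that differ from young HSC, so this describes the 10 genes and not the pathway. Of the 123 pathway genes, 19 (15.4%) were higher in NR-treated aged than in young HSC. Of the 10 genes, 6 are further GTPases of the guanylate-binding and immunity-related families. Not every GTPase of the list rose with age. Named after their values were seen, Gbp3 rose (log2 fold change 0.93 ± 0.19, adjusted p = 0.00201) and Gbp5 did not pass (0.16 ± 0.22, adjusted p = 0.658). Gbp4 was at 9.12, 8.84, 8.53, 6.89 and 12.1 CPM in young, 31.5, 29.8, 39.3, 32.0 and 41.8 CPM in aged and 33.9, 30.7, 46.3, 52.2 and 28.6 CPM in NR-treated aged HSC, and its log2 fold change was 1.94 ± 0.20 with age (adjusted p = 1.41e-06) and 0.11 ± 0.18 with NR (adjusted p = 0.735). Iigp1 rose by 1.501 ± 0.17 on the log2 scale with age, Tgtp1 by 1.75 ± 0.24, Gbp8 by 1.37 ± 0.18, Tgtp2 by 1.29 ± 0.17 and Irgm2 by 1.26 ± 0.18, with adjusted p from 4.2e-06 to 6.71e-05, and their log2 fold changes with NR ran from -0.44 to 0.17, none of them called. Uba7, the activating enzyme for Isg15, rose by 0.945 ± 0.11 (adjusted p = 9e-06), although Isg15 itself did not pass. Plscr1, a lipid scramblase, rose by 1.24 ± 0.15 (adjusted p = 1.12e-05) and the surface protein Ly6e by 0.97 ± 0.12 (adjusted p = 1.99e-05). Phf11d had the largest change, at 6.32, 8.44, 8.98, 3.99 and 5.12 CPM in young, 38.7, 41.5, 40.2, 40.5 and 53.6 CPM in aged and 21.75, 15.5, 19.8, 23.4 and 32.7 CPM in NR-treated aged HSC, with log2 fold changes of 2.73 ± 0.225 with age (adjusted p = 7.32e-08) and -0.92 ± 0.20 with NR (adjusted p = 0.0102). Tgtp1 and Tgtp2 are near-identical copies, so the split of reads between them is uncertain.

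Markers of mature blood cells differed between libraries and groups as well. Summed CPM of 13 B and plasma cell markers were 110 to 875 in young, 662 to 4730 in aged and 89.4 to 181 in NR-treated aged HSC, those of 10 neutrophil markers 22.1 to 5070, 745 to 1420 and 8.77 to 133, and those of 8 erythroid markers 2300 to 4620, 5450 to 8940 and 1940 to 3050. The median neutrophil sums were 60.4, 1270 and 17.1 CPM in the 3 groups. The sum of 5070 CPM was that of young replicate 3, and the other young libraries, at 22.1 to 537 CPM, lay below every aged library. Of these B cell, neutrophil and erythroid markers, 6, 0 and 4 were called higher with age, and 9, 8 and 7 lower with NR. Young replicate 3 enters both comparisons with young HSC. In NR-treated aged compared with young HSC, 4, 8 and 5 of them were called lower. The 12 monocyte and macrophage markers summed to 400 to 2600, 713 to 1690 and 316 to 514 CPM, with 1 called higher and 1 lower with age and 4 lower with NR. The 8 measured T and NK cell markers summed to 108 to 200, 207 to 257 and 140 to 217 CPM. Of these 1, Klrb1c, was called higher with age, lower with NR and higher in NR-treated aged than in young HSC. Of 7 measured markers of plasmacytoid dendritic cells, the main producers of type I interferon, most counts came from Tcf4 and Lair1, which HSC also express. Of these markers 1, Cox6a2, was called lower with NR (adjusted p = 0.0252) and lower in NR-treated aged than in young HSC (adjusted p = 0.0345). Siglech ran from 0.27 to 22.5 CPM in young and from 0.867 to 8.53 CPM in aged HSC. It was at 0 in 4 of the 5 NR-treated libraries and was not called lower with NR (adjusted p = 0.12). In bulk RNA, fewer cells of a type and less RNA per cell cannot be told apart. The part of mature cells in the differences of the interferon response genes was not tested.

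**Figure D4:**
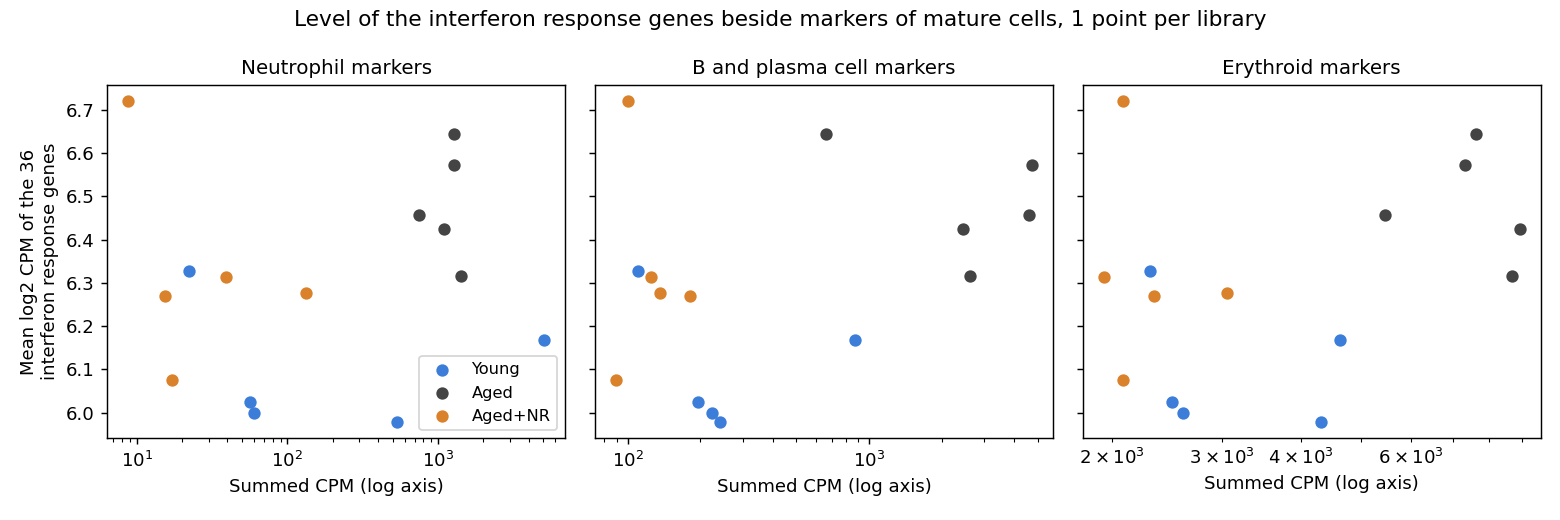
Mean log2 CPM of the 36 interferon response genes (y axis) against the summed CPM of neutrophil, B and plasma cell and erythroid markers (x axes, log scale), with 1 point per library. The aged libraries lie to the right of all others in the erythroid panel and, except aged replicate 5 at 662 CPM against 875 CPM in young replicate 3, in the B cell panel, young replicate 3 has the highest neutrophil sum at a level of 6.17, and NR-treated replicate 4 has the highest level, 6.72.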

How the data were processed

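RNA was sequenced with 3′-biased libraries and unique molecular identifiers from HSC sorted as lineage-negative, Sca-1+, cKit+, CD150+, CD48- cells of individual mice. The authors aligned reads to GRCm38 with STAR (2.4.2a), removed duplicated identifiers, counted reads over GENCODE exons with featureCounts and filtered on expression, so that a gene needed over 5 reads, and over 2 CPM, in 2 samples or more. The strand setting of the counting is not given in the sources used here. The authors deposited these raw counts for 16154 genes, and every column of the table was assigned to a sample by its label.

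The counts were normalised by TMM and fitted in edgeR (4.0.16, R 4.3.3) with the quasi-likelihood test, in 1 model of all 15 libraries with group as the only factor, and p-values were Benjamini-Hochberg adjusted over all genes. Errors of log2 fold changes are standard errors, and all adjusted p-values of the report and the closing section come from this test, except the largest values over the alternatives, which come from the alternative concerned. The 3′ reads make levels comparable between libraries and not between genes. No batch is named in the labels, and whether mice of a group were processed on separate days was not given. The mean level over the genes was taken on log2 CPM (prior count 2).

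The members and gene lists were chosen with earlier results of these data known. Per-library values are given for members called in any comparison with a mean of at least 5 CPM in a group, and for Isg15, Irf7, Ifitm3, Stat2, Irf1, Bst2 and Psmb8 in any case, and other members by their fold changes and ranges. From the other pathway genes, the 10 with the smallest adjusted p and the receptors and signalling genes are named, of which 1 is not reported here. Promoter windows came from RefSeq (GRCm38.p6), matched by symbol, and 31 members had 1 or more.

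Each named call was recomputed under 27 alternatives: an adjusted p under 0.01, the likelihood ratio test, DESeq2 (1.42.0), limma-voom (limma 3.58.1), only the 2 groups compared, library totals alone, DESeq2 size factors, a minimum of 10 counts in each library, all libraries thinned to the smallest total, a replicate block, each of the 15 libraries left out, and the young replicates 1 and 5, or 1, 3 and 5, left out. For the other pathway genes 4 alternatives were run: the likelihood ratio test and, chosen after seeing the data, library totals and both sets of young replicates left out. Samples of 1 replicate number did not deviate together (15 pairs of samples, correlations of -0.27 to 0.133), so the numbers were not treated as pairs. No 2 libraries of a group agreed within counting noise (chi-square per degree of freedom 3.0 to 16.7). The fit was tested on simulated data.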

Additional observations from a re-analysis of the deposited data

Results flagged for a closer look

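Among the 22 genes given by library, 66 groups of 5 libraries were examined for a library far from the other 4 (Dixon's 95% criterion), and 7 stood apart. The criterion flags about 1 in 20 independent groups by chance. These groups share the same libraries and are not independent, so the 7 cannot be compared with that rate. NR-treated aged replicate 4 accounted for 4 of the 7, and in each it was the highest of its group. It had 152.7 CPM of Gbp2 against 89.4 to 101.1 in the other NR-treated libraries, 413.5 CPM of Gbp7 against 284.3 to 321.1, 165.5 CPM of Irgm1 against 93.7 to 110.5, and 48.22 CPM of Stat2 against 33.8 to 37.9. The GTPases Gbp2, Gbp7 and Irgm1 are targets of interferon gamma, and Stat2 transmits type I interferon.

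Young replicate 2 accounted for 2. It was the highest young library for Irf9, at 123.8 CPM against 76.9 to 83.2, and the lowest for Tap1, at 86.4 CPM against 97.4 to 100.4. Young replicate 1, one of the young libraries with Y-linked transcripts, had 40.71 CPM of Trim25 against 52.6 to 55.2 in the other young libraries. Why these libraries differ was not tested.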

How the results depend on the processing

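No call of a named gene changed direction. Of the 31 calls, 11 passed in every alternative: the rise with age of Igtp, Rtp4, Gbp2, Gbp7, Ifitm1, Ifitm3 and Isg20, the fall of Ifitm1 with NR, and the difference of Igtp, Gbp2 and Tap1 between NR-treated aged and young HSC. The 12 alternatives that did not leave out 1 library kept 296 and lost 76 of 372 calls. With 1 library left out, the counts ran from 12 to 17 higher and 0 to 1 lower with age, from 1 to 2 higher and 1 to 6 lower with NR, and from 3 to 13 higher and 0 lower for NR-treated aged against young HSC.

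Counts that moved by more than 1.5 times are given here, and the cause was not tested. The 15 genes higher with age became 7 without young replicates 1, 3 and 5, while over all genes 1564 became 628. The 1 gene lower with age, Trim25, became 0 at an adjusted p under 0.01, with only the 2 groups, after thinning, and without either set of young replicates. The 6 genes lower with NR became 1 at an adjusted p under 0.01 and with library totals, and 3 with a minimum of 10 counts per library and after thinning. The 1 gene higher with NR became 2 with library totals and with that minimum, and 0 after thinning. The 8 genes higher in NR-treated aged than in young HSC became 3 at an adjusted p under 0.01 and without either set of young replicates. Over all genes, 413 became 229 at that threshold, 306 without young replicates 1 and 5 and 185 without 1, 3 and 5.

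With the replicate block, 14 genes were higher with age, 4 lower with NR and 4 higher in NR-treated aged than in young HSC (8 without the block). The replicate numbers share no stated origin, and this pairing is not given as evidence of a weaker effect.

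With library totals, the median log2 fold change of all genes was -0.164 with age and 0.161 with NR, against -0.032 and 0.020 with TMM factors. The share of all called genes that were higher moved from 50.1% to 29.1% with age and from 48.1% to 78.4% with NR, and the members stood at 12 higher and 1 lower with age. For the other pathway genes, the 3 lower and 34 higher with age became 11 lower with library totals, 1 lower without either set of young replicates and 18 higher without young replicates 1, 3 and 5. The 3 higher and 11 lower with NR became 8 and 7 with library totals. The 19 higher in NR-treated aged than in young HSC became 12 without young replicates 1, 3 and 5, and the 4 lower became 7 with the likelihood ratio test, 2 with library totals and 0 without young replicates 1, 3 and 5.

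The smallest aged library held 764119 counts, which limits the precision of its values, and Ifit3 was the 1 member with 3 or fewer counts in a library (1 count, in NR-treated aged replicate 3).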

Other observations

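Tap2, the partner of Tap1 in the peptide pump, was looked at after its values were seen and followed another pattern than Tap1. It was at 74.7, 78.4, 71.4, 62.4 and 68.2 CPM in young, 44.2, 37.6, 36.9, 44.45 and 40.2 CPM in aged and 82.2, 69.2, 81.3, 78.5 and 58.0 CPM in NR-treated aged HSC (replicates 1 to 5). Tap2 fell with age (log2 fold change -0.79 ± 0.12, adjusted p = 0.000126) and rose with NR (0.85 ± 0.12, adjusted p = 0.000778), with 0.055 ± 0.12 between NR-treated aged and young HSC (adjusted p = 0.861). Other genes of peptide supply and loading on MHC class I, also named after their values were seen, were at log2 fold changes of 0.64 ± 0.12 with age and -0.33 ± 0.12 with NR for B2m, the light chain (adjusted p = 0.00116 and 0.0992), 0.35 ± 0.12 and -0.12 ± 0.12 for tapasin, Tapbp (adjusted p = 0.0499 and 0.57), and 0.41 ± 0.16 and 0.23 ± 0.16 for Nlrc5, the transactivator of these genes (adjusted p = 0.077 and 0.379). Psmb10, the remaining catalytic subunit of the immunoproteasome, was at 0.375 ± 0.13 and -0.069 ± 0.13 (adjusted p = 0.0491 and 0.784).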
